A study of Mus musculus with 4 samples.

Results

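Fam19a2, Robo1, Lrtm2, Prss8, Pls1, Atp6v0d2 and Wdfy1 are 7 genes that are not typical products of the hepatocyte and whose RNA was higher in mouse livers without Cyp27a1. They were chosen from the measured values of these same libraries, as genes higher without Cyp27a1, and all 7 were found among the 33639 genes of the deposited tables. Their levels and folds with Cyp27a1 loss are therefore a description and carry no test. Each of 4 libraries came from the liver of 1 male mouse. The groups are a global Cyp27a1 knockout (Cyp27a1 KO), a global double knockout (DKO) of Cyp27a1 and the Cyp3a genes, a global Cyp3a knockout (Cyp3a KO) and wild type (WT). The labels name the second target by the human symbol Cyp3a4. All mice ate standard chow, received no treatment, and have no age or strain in the labels.

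Cyp27a1 encodes the mitochondrial sterol 27-hydroxylase, which starts the acidic route of bile acid synthesis and makes 27-hydroxycholesterol. Cyp3a enzymes hydroxylate bile acids, sterols and drugs, and are induced through the nuclear receptor PXR. The 7 genes belong to neither pathway. Fam19a2 (also named Tafa2) encodes a small secreted protein best known from brain, Robo1 the Slit receptor of axon guidance, and Lrtm2 a leucine-rich repeat membrane protein. Prss8 encodes prostasin, a membrane-anchored serine protease of epithelia. Pls1 encodes plastin 1, an actin-bundling protein of microvilli. Atp6v0d2 encodes the d2 subunit of the V-ATPase proton pump, known from osteoclasts, macrophages and kidney. Wdfy1 encodes an endosomal FYVE-domain protein that acts as an adaptor of TLR3 and TLR4.

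The libraries held 49745860 to 50378101 estimated counts each. Both deletions followed the labels, since Cyp27a1 RNA in the Cyp27a1 KO was 7.73% and in the DKO 8.75% of the WT level, and in the Cyp3a KO 97.4% of it. Which mouse Cyp3a genes the second allele removes is not in the labels. Cyp3a11, the main hepatic one, stood at 271% of its WT level in the Cyp27a1 KO, 0.0545% in the DKO and 0.00183% with Cyp3a loss alone. Levels are in CPM, counts scaled by TMM factors to a library of 1000000. With 1 library per genotype differences have no replicate check and no p-values, and libraries rather than genotypes are compared. Intervals are exact 95% intervals and cover counting error only. A gene was called higher or lower at a fold of at least 2 on log2(CPM + 0.5), a mean of at least 1 CPM and a count-ratio interval that left out 1. In bulk liver RNA, fewer cells of a type and less RNA per cell cannot be told apart.

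The 251 bases up to the start of transcription are shown for Robo1, Pls1 and Lrtm2, from RefSeq (GRCm38.p6, the mm10 build). For Robo1 and Pls1 this start lies at or close to that of the transcript whose length matched the data. For Lrtm2 it is the outer of 2 RefSeq starts, and which start was used is not established. The last base, in capitals, is the annotated start.
Robo1 (chr16:72662899-72663149, plus strand): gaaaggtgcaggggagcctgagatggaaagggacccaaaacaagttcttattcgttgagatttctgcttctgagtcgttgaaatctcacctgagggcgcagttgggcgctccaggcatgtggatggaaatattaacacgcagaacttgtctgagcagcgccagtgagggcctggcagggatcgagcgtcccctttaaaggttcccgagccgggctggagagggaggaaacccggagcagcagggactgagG
Pls1 (chr9:95845279-95845529, minus strand): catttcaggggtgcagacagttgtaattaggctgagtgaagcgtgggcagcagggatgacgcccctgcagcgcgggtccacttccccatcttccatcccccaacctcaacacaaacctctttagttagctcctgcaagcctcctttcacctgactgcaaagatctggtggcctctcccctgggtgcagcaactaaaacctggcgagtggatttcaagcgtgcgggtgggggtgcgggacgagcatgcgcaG
Lrtm2 (chr6:119330766-119331016, minus strand): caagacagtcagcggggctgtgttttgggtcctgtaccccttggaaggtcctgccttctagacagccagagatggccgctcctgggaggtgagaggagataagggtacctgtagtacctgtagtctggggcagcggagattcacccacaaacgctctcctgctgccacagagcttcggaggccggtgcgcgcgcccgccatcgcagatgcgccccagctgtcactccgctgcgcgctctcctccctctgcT
GC made up 56.0% of the 250 bases before the Robo1 start, 58.0% for Pls1 and 63.2% for Lrtm2. A search of these windows, extended to 50 bases past the start, covered both strands. The motifs were the nuclear receptor half-sites AGGTCA and AGTTCA, the antioxidant response element core TGACNNNGC, the E-box CACGTG, the STAT site TTCNNNGAA, the TATA box TATAAA and the HNF4 site CAAAGTCCA. It found 0 matches in the 5 windows that 4 of the members had. Among all 32851 such windows, 16.3% held AGGTCA, 14.0% AGTTCA, 12.4% the antioxidant core, 7.15% the E-box, 8.30% the STAT site, 13.6% the TATA box and 0.475% the HNF4 site. The absence of a match says only that these letters are not in these windows.

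All 7 genes were higher in the Cyp27a1 KO than in WT under the calling rule, beside 2.44% of 11743 measured genes called higher. In the pair without Cyp3a, 6 of 7 were higher in the DKO than in the Cyp3a KO, beside 4.02% of measured genes. The rule of choice used these contrasts, so the counts describe the selection. The median log2 fold of the 7 was 2.98 in the Cyp27a1 KO over WT and 2.75 in the DKO over the Cyp3a KO, against medians over all measured genes of 0.00 and -0.02. The 2 pairs have no library in common. In all, 116 genes, 0.988% of those measured, were called higher in both pairs.

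**Figure D1:**
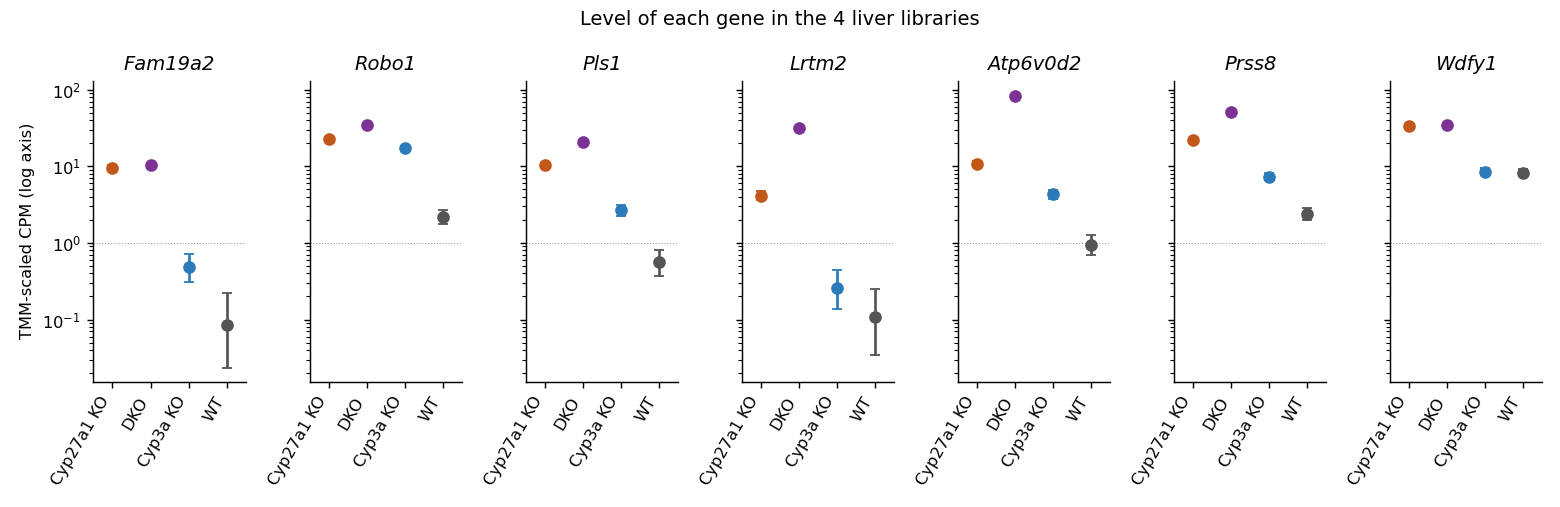
TMM-scaled CPM (log axis) of each gene in the 4 liver libraries, 1 mouse each; points are the libraries and bars are exact 95% Poisson intervals of the count. In each panel both libraries without Cyp27a1 stand above both libraries with it, and Robo1 in the Cyp3a KO (17.3 CPM) lies near its level in the Cyp27a1 KO (23.0 CPM).

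Fam19a2 lies on chromosome 10 (123263996 to 123741204, plus strand, mm10). It had 476 estimated counts in the Cyp27a1 KO and 555 in the DKO, against 24 in the Cyp3a KO and 4 in WT. The 2 libraries without Cyp27a1 stood far above the other two, and near each other. The fold was 111 (interval 43.2 to 411) for the Cyp27a1 KO over WT and 21.4 (14.2 to 33.6) for the DKO over the Cyp3a KO. Its log2 fold with a pseudocount ranked 5 of 11743 in the first pair. Loss of Cyp3a moved it less, with a ratio of 5.59 (1.92 to 22.2) for the Cyp3a KO over WT, not called on the log2 scale, and of 1.07 (0.947 to 1.21) for the DKO over the Cyp27a1 KO.

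Robo1 lies on chromosome 16 (72308306 to 73046095, plus strand). It had 1143 counts in the Cyp27a1 KO, 1897 in the DKO, 865 in the Cyp3a KO and 102 in WT. WT stood alone at the low end, and the 3 knockout libraries lay between 17.3 and 35.0 CPM. The fold was 10.5 (8.56 to 13.0) for the Cyp27a1 KO over WT, and 7.90 (6.43 to 9.79) for the Cyp3a KO over WT. The DKO stood 2.03-fold (1.87 to 2.20) above the Cyp3a KO, a log2 fold of 0.999, just under the calling threshold of 1. It was called there under library-total or median-of-ratios scaling, on TPM and with a pseudocount of 0.1.

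Lrtm2 lies on chromosome 6 (119315133 to 119330766, minus strand). It had 206 counts in the Cyp27a1 KO and 1700 in the DKO, against 13 in the Cyp3a KO and 5 in WT. The DKO stood highest, and both libraries that keep Cyp27a1 were near 0. The fold was 38.6 (16.3 to 120.05) for the Cyp27a1 KO over WT and 121 (70.5 to 227) for the DKO over the Cyp3a KO. The DKO was also 7.59-fold (6.56 to 8.81) above the Cyp27a1 KO, while the Cyp3a KO over WT gave 2.42 (0.810 to 8.67), an interval that includes 1.

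Prss8 lies on chromosome 7 (127925716 to 127930104, minus strand). It had 1112 counts in the Cyp27a1 KO, 2808 in the DKO, 364 in the Cyp3a KO and 112 in WT. Each loss went with a higher level on either background. The fold with Cyp27a1 loss was 9.30 (7.65 to 11.4) over WT and 7.13 (6.39 to 7.97) over the Cyp3a KO. The fold with Cyp3a loss was 3.03 (2.44 to 3.77) over WT and 2.32 (2.16 to 2.49) over the Cyp27a1 KO.

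Pls1 lies on chromosome 9 (95752642 to 95845311, minus strand). It had 511 counts in the Cyp27a1 KO, 1113 in the DKO, 133 in the Cyp3a KO and 26 in WT. The DKO stood highest and WT lowest. The fold was 18.4 (12.4 to 28.4) for the Cyp27a1 KO over WT and 7.74 (6.46 to 9.33) for the DKO over the Cyp3a KO. The Cyp3a KO stood 4.76-fold (3.11 to 7.56) above WT.

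Atp6v0d2 lies on chromosome 4 (19876841 to 19922605, minus strand). It had 533 counts in the Cyp27a1 KO, 4525 in the DKO, 216 in the Cyp3a KO and 44 in WT. The DKO stood well above every other library. The fold was 11.3 (8.33 to 15.8) for the Cyp27a1 KO over WT and 19.4 (16.9 to 22.3) for the DKO over the Cyp3a KO. Cyp3a loss went with folds of 4.57 (3.29 to 6.47) over WT and 7.80 (7.13 to 8.55) over the Cyp27a1 KO.

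Wdfy1 lies on chromosome 1 (79702262 to 79776143, minus strand). It had 1654 counts in the Cyp27a1 KO and 1870 in the DKO, against 428 in the Cyp3a KO and 385 in WT. The libraries fell into a high and a low pair by Cyp27a1 genotype. The fold was 4.02 (3.60 to 4.51) over WT and 4.04 (3.63 to 4.50) over the Cyp3a KO. Cyp3a loss gave ratios of 1.04 (0.900 to 1.19) over WT and 1.04 (0.972 to 1.11) over the Cyp27a1 KO, both with intervals that include 1.

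**Figure D2:**
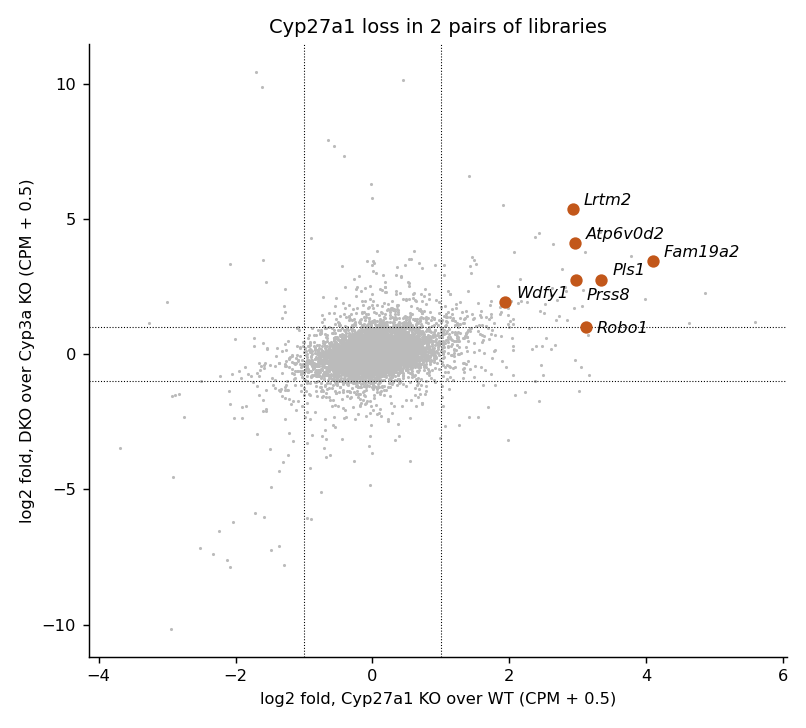
Log2 fold of CPM + 0.5 for the DKO over the Cyp3a KO (vertical) against the Cyp27a1 KO over WT (horizontal); grey points are the 11743 measured genes, orange points the 7 members, dotted lines mark log2 folds of 1 and -1. Wdfy1 sits at 1.94 and 1.95, Lrtm2 at 2.93 and 5.39, and Robo1 at 3.13 and 0.999.

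Cyp3a loss, which the choice of members did not name, called 4 of the 7 higher in the Cyp3a KO than in WT, beside 2.56% of measured genes, and 3 of 7 higher in the DKO than in the Cyp27a1 KO, beside 2.84%. None of the 7 was lower in these comparisons, which for so few genes is near the background of 1.86% and 2.59%. Fam19a2 and Lrtm2, at 0.0858 and 0.107 CPM in WT, could not be called lower than WT with a pseudocount of 0.5. The 4 were Robo1, Pls1, Atp6v0d2 and Prss8, and the 3 were Lrtm2, Atp6v0d2 and Prss8. Both comparisons are made only of libraries that were used to choose the members. A choice that favours low WT levels also raises a fold over WT. One that favours high DKO levels also raises the fold of the DKO over the Cyp27a1 KO. These counts are therefore descriptions as well. The effect of Cyp27a1 loss on log2(CPM + 0.5) was larger without Cyp3a by 2.46 for Lrtm2 and by 1.17 for Atp6v0d2. The Lrtm2 value rests on 5 counts in WT and 13 in the Cyp3a KO. The intervals of its fold in the 2 pairs, 16.3 to 120.05 and 70.5 to 227, overlap. For Robo1 the effect was smaller without Cyp3a, with a difference of -2.13, and for Wdfy1 it differed by 0.01. Over all measured genes the 5th and 95th percentiles of this difference were -0.84 and 0.84. Fam19a2 at -0.65, Pls1 at -0.61 and Prss8 at -0.22 lay within that range. The values of Fam19a2 and Pls1 depend on the pseudocount, as WT held 4 and 26 counts. With a pseudocount of 0.1 the log2 folds of Fam19a2 were 5.70 over WT and 4.16 over the Cyp3a KO. Those of Pls1 were 3.98 and 2.91. The percentiles were not computed at that setting.

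Levels of different genes were compared per length, in TPM. In WT liver the members ranged from 0.0349 TPM for Fam19a2 and 0.0364 TPM for Lrtm2 to 3.91 TPM for Wdfy1. Those 3 values stood at the 0.128, 0.145 and 33.4 percentiles of measured genes. Prss8 was next below Wdfy1 in WT, at 1.65 TPM and the 17.3 percentile. In the DKO the range was 5.32 TPM for Fam19a2 to 52.0 TPM for Atp6v0d2, at the 34.5 and 83.9 percentiles. All 7 passed the filter of a mean of 1 CPM. Fam19a2 and Lrtm2 were under 0.5 CPM in both libraries that keep Cyp27a1, so they passed through the libraries without it.

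Dividing the estimated count by the TPM gives the mean length of the transcripts to which a gene's reads were assigned, a readout the choice of members did not use. Calibrated on 847 genes with a single annotated transcript in GENCODE M21, this length came out within 2 bases of the annotation for 86.3% to 86.5% of them in each library. For Robo1 it was 7563 bases in all 4 libraries, the length of the coding transcript Robo1-201. For Atp6v0d2 it was 2539 bases in all 4, the length of Atp6v0d2-201. Pls1 matched the 3704 bases of Pls1-201 in the Cyp27a1 KO and WT, with 3550 bases in the DKO and 3467 in the Cyp3a KO. Lrtm2 had 3277 bases in the Cyp27a1 KO and 3538 in the DKO, and neither is the length of an annotated transcript. In the Cyp3a KO and WT it had the 3569 bases of Lrtm2-202, on 13 and 5 counts. Prss8 kept between 1818 and 1852 bases, close to Prss8-201.

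Fam19a2 gave 3055 bases in the Cyp27a1 KO and 3006 in the DKO, and neither is the length of an annotated transcript. In the Cyp3a KO and WT it gave 2986 bases, on 24 and 4 counts. The value of 2986 bases is the length of Fam19a2-203, which GENCODE lists as a processed transcript with no coding sequence. The coding transcript Fam19a2-201 is 4364 bases long. Fam19a2-203 lacks its exon 2 (chromosome 10, 123430712 to 123430923), which holds the start codon, and begins 909 bases further downstream. In both libraries where the gene was high, the implied length also lay nearer to Fam19a2-203 than to Fam19a2-201. These lengths rest on the authors' assignment of reads among transcripts that share most of their exons.

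**Figure D3:**
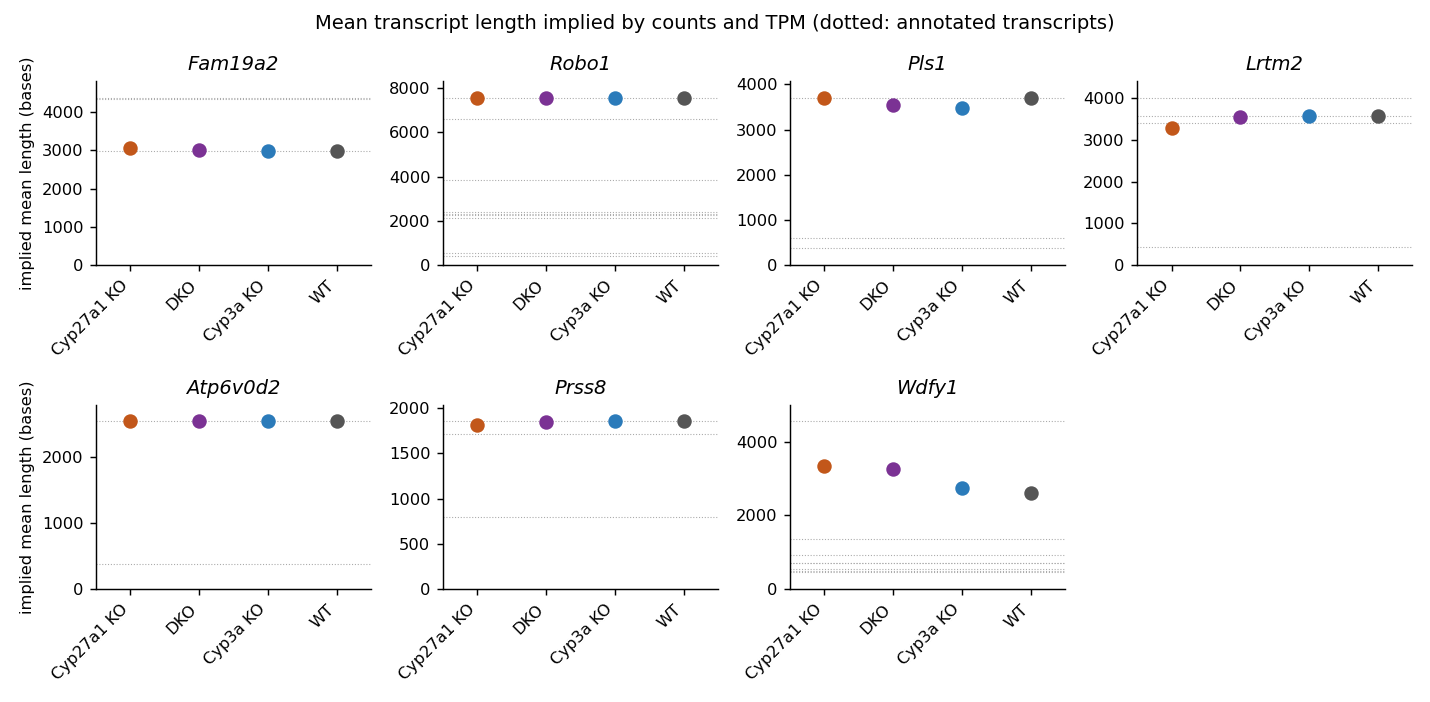
Mean transcript length in bases implied by estimated counts and TPM for each gene in the 4 libraries; dotted lines are the lengths of the annotated GENCODE M21 transcripts. Wdfy1 stands at 3347 bases in the Cyp27a1 KO and 3264 in the DKO, above 2736 in the Cyp3a KO and 2598 in WT, while Robo1 and Atp6v0d2 stay on 1 transcript length.

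Wdfy1 differed between libraries in this measure along with its level. The implied length was 3347 bases in the Cyp27a1 KO and 3264 in the DKO, against 2736 in the Cyp3a KO and 2598 in WT. Its annotated transcripts fall into full-length ones of 4551 bases and shorter ones of 1359 bases or less. The log2 change in effective length was 0.39 for the Cyp27a1 KO over WT and 0.27 for the DKO over the Cyp3a KO, against 0.08 and -0.04 with Cyp3a loss. Of 10039 genes with at least 100 counts in every library, 2.81% moved as far in either direction in the first pair and 8.05% in the second. Of the same genes, 32 moved at least as far toward longer transcripts in both pairs, or 0.319%, and 33, or 0.329%, moved as far toward shorter ones.

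Wdfy1 is also the member that shares a chromosome with the deleted gene. It starts 4.96 Mb after the end of Cyp27a1 (chromosome 1, 74713574 to 74737892). Serpine2, which encodes protease nexin 1, is the nearest protein-coding gene on that side that does not overlap Wdfy1, with 18054 bases between them. Serpine2 had 113 counts in the Cyp27a1 KO and 68 in the DKO, against 220 in the Cyp3a KO and 892 in WT, so it was lower in both pairs, with log2 folds of -2.83 and -1.48. Unlike Wdfy1, it was also lower in the Cyp3a KO than in WT, with a log2 fold of -2.00. Of 66 measured genes within 10 Mb of Cyp27a1, 2 were higher in the Cyp27a1 KO, or 3.03% (0.369 to 10.5), against 2.44% of all genes. In the DKO over the Cyp3a KO 1 was higher, or 1.52% (0.0384 to 8.16), against 4.02%. Wdfy1 was counted both times, and the other gene, Igfbp5, was named after its values were seen. In each pair 3 genes, or 4.55% (0.947 to 12.7), were lower, against 1.36% and 2.70% of all genes.

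**Figure D4:**
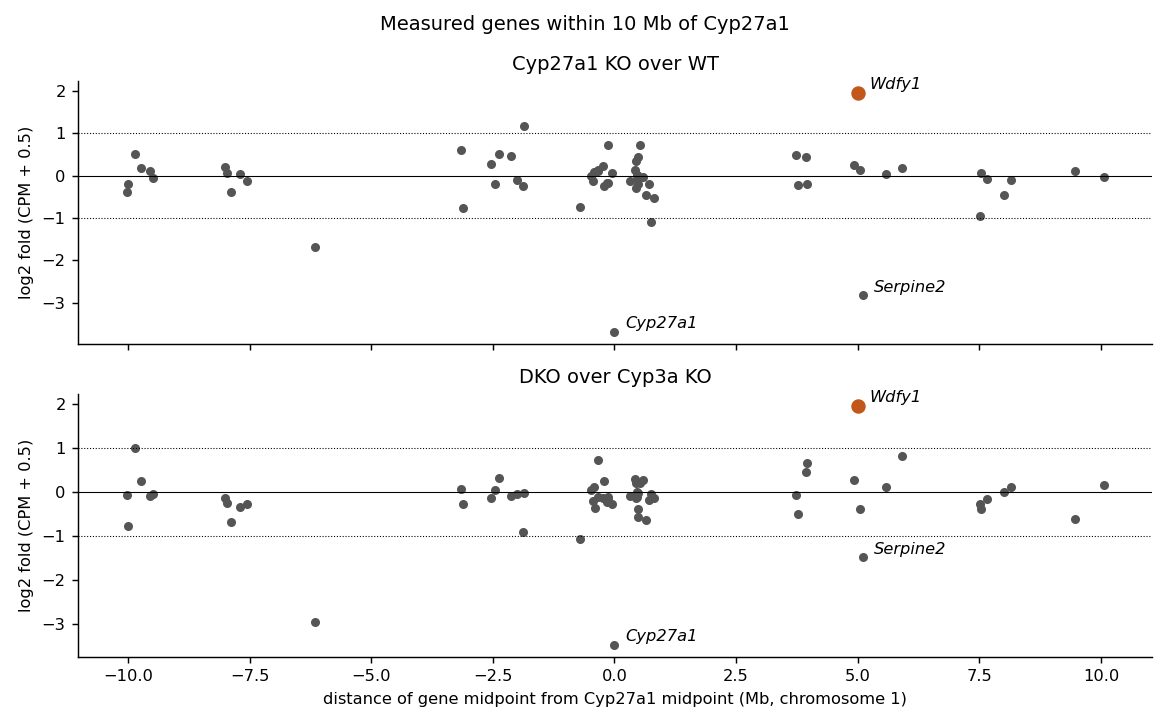
Log2 fold of CPM + 0.5 of measured genes within 10 Mb of Cyp27a1, by distance between gene midpoints in Mb; top, Cyp27a1 KO over WT, bottom, DKO over Cyp3a KO; dotted lines mark 1 and -1. Wdfy1 stands at 1.94 and 1.95 beside Serpine2 at -2.83 and -1.48.

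The families and partners of the members were taken from 8 lists. Of 49 measured genes on them besides the members, 3, or 6.12%, were called higher in the Cyp27a1 KO over WT, against 2.44% of all measured genes. In the DKO over the Cyp3a KO 4, or 8.16%, were, against 4.02%. Called lower were 1, or 2.04%, in the first pair and 3, or 6.12%, in the second. Over all measured genes the shares called lower were 1.36% and 2.70%. These lists were chosen around the members, and with so few genes the shares are a description. Of the 4 other TAFA genes only Fam19a5 was measured, with 127 counts in the Cyp27a1 KO, 146 in the DKO, 124 in the Cyp3a KO and 52 in WT, and it was not called in either pair. Of 9 other Slit and Robo genes 4 were measured. Robo4, the endothelial Robo, had 669 counts in the Cyp27a1 KO and 658 in the DKO, against 604 in the Cyp3a KO and 676 in WT. Robo2 had 65 counts in the Cyp27a1 KO and 61 in WT, but 60 in the DKO against 127 in the Cyp3a KO, a log2 fold of -0.92 that was not called. The ligand genes Slit1, Slit2 and Slit3 had at most 10 counts in any library. Srgap3, a GTPase-activating partner of Robo, was higher in the Cyp27a1 KO than in WT, with a log2 fold of 1.12, but lower in the DKO than in the Cyp3a KO, with one of -1.30.

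Of 9 other genes on the list of Lrtm2, 2 were measured, Lrtm1 and Cacna2d4. Both were called higher in both pairs, beside 0.988% of all measured genes. Lrtm1, a gene of the same family, had 625 counts in the Cyp27a1 KO and 1289 in the DKO, against 284 in the Cyp3a KO and 112 in WT, with log2 folds of 2.17 and 1.98. Cacna2d4, a calcium channel subunit gene, had 33 counts in the Cyp27a1 KO and 333 in the DKO, against 18 in the Cyp3a KO and 3 in WT. It passed the filter through the DKO alone, at 6.15 CPM, and was under 1 CPM in the other 3 libraries. Both genes were highest in the DKO and lowest in WT, an order that all 7 members had. Lrtm2 lies wholly inside Cacna2d4 on the opposite strand, with 0 shared exon bases. Lrtm1 lies in the same way inside Cacna2d3 on chromosome 14, but Cacna2d3 had at most 5 counts in any library. The library kit does not mark strand, so intronic reads of Cacna2d4 and reads of Lrtm2 cannot be told apart by strand. Prss8 shares 122 exon bases with Kat8 on the opposite strand, which had 651 to 681 counts in the 4 libraries. Wdfy1 shares 126 exon bases with Mrpl44, which had 715 to 884 counts.

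For Prss8, 8 of 12 partner and substrate genes were measured. St14, which encodes matriptase, the protease that acts with prostasin, had 64 counts in the Cyp27a1 KO and 97 in the DKO, against 77 in the Cyp3a KO and 54 in WT, and was called in neither pair. Spint2, an inhibitor of both proteases, had log2 folds of 0.25 and 0.09. Serpine2, the gene beside Wdfy1, encodes another inhibitor of prostasin and was the gene of this list called lower in both pairs. The transmembrane protease gene Tmprss2 had 218 counts in the Cyp27a1 KO and 244 in WT, but 1097 in the DKO against 208 in the Cyp3a KO. Egfr, the growth factor receptor gene, was lower in the DKO, with 7679 counts against 33252 in the Cyp3a KO.

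For Pls1, 8 of 14 other plastin and microvillus genes were measured, and 0 were called in the Cyp27a1 KO over WT, which for so few genes is near the background of 2.44% higher and 1.36% lower. The other plastins, Pls3 and Lcp1, had log2 folds of 0.38 and 0.33 there, and of -0.20 and -0.02 in the DKO over the Cyp3a KO. Cdhr5, a protocadherin of the brush border, was called higher in the DKO over the Cyp3a KO, with a log2 fold of 1.31, and had 0.78 in the other pair. Vil1, the villin gene of intestinal microvilli, had 7 to 13 counts in the 4 libraries.

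For Atp6v0d2, 9 of 11 other V0 and accessory genes and 8 of 13 V1 genes of the V-ATPase were measured, and 0 of these were called in either pair. For 17 genes that is near the background, which was 2.44% higher and 1.36% lower in the Cyp27a1 KO over WT, and 4.02% and 2.70% in the DKO over the Cyp3a KO. The median log2 fold of the other V0 genes was -0.05 in the Cyp27a1 KO over WT and 0.13 in the DKO over the Cyp3a KO, and that of the V1 genes was -0.11 and 0.30. The d1 subunit gene Atp6v0d1, the form found in most tissues, was at 63.3 TPM in the Cyp27a1 KO, 69.5 TPM in the DKO, 53.4 TPM in the Cyp3a KO and 52.0 TPM in WT. As a share of the d1 and d2 transcripts together, Atp6v0d2 was 8.49% in the Cyp27a1 KO, 42.8% in the DKO, 3.99% in the Cyp3a KO and 0.873% in WT. Atp6v0d1 stayed between 52.0 and 69.5 TPM, so the share followed Atp6v0d2.

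For Wdfy1, 9 of 10 related genes and TLR3 and TLR4 pathway genes were measured, and 0 were called in either pair, again near the background of 2.44% and 4.02% called higher. Wdfy2 had log2 folds of -0.03 and -0.19, and Wdfy3 had -0.02 and -0.05. Tlr3 had 151 counts in the Cyp27a1 KO, 236 in the DKO, 151 in the Cyp3a KO and 139 in WT. Ifnb1, the interferon beta gene downstream of TLR3, had 0 counts in every library, under the floor of 3 counts.

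**Figure D5:**
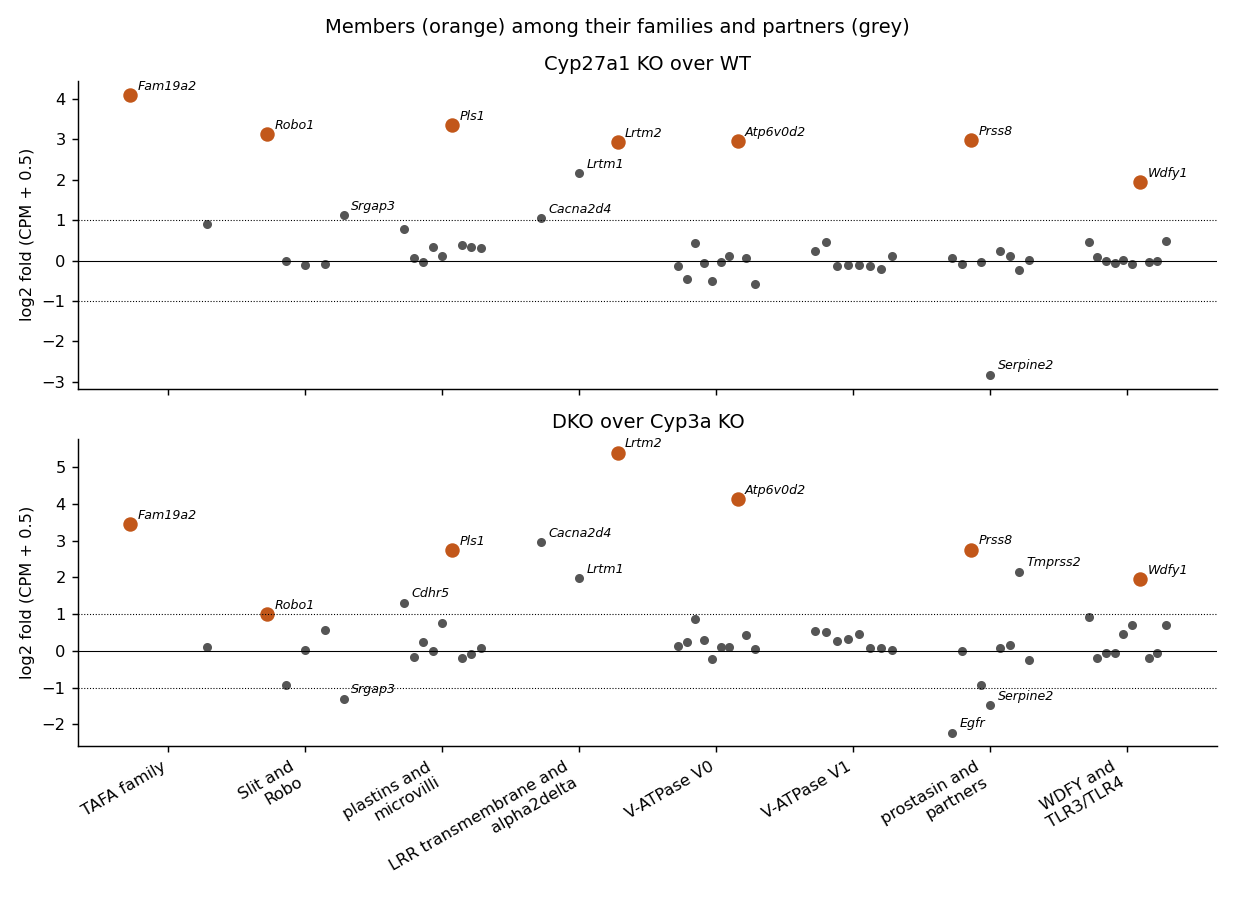
Log2 fold of CPM + 0.5 of the measured genes of each family or pathway list in the Cyp27a1 KO over WT and in the DKO over the Cyp3a KO; members are marked apart from the other genes of their list, and dotted lines mark 1 and -1. Lrtm1 (2.17 and 1.98) stands with Lrtm2, while the other V0 genes lie around 0 below Atp6v0d2.

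Markers of hepatocytes and of other cells that could carry these genes were summed over each of 10 lists. No T and B cell or neutrophil marker was measured. Of 6 stellate markers, Acta2 was called higher in the Cyp27a1 KO over WT (log2 fold 1.02), beside 2.44% of measured genes. In the DKO over the Cyp3a KO, Acta2 (-1.16) and Col1a1 (-1.23) were lower, beside 2.70%. Of 5 endothelial markers, Lyve1 was higher in that pair (1.11), beside 4.02%. The 7 Kupffer cell markers had a summed CPM of 227 in the Cyp27a1 KO and 360 in the DKO, against 143 in the Cyp3a KO and 211 in WT. In the DKO over the Cyp3a KO 6 of the 7 were called higher, all but Clec4f, beside 4.02% of measured genes, with a median log2 fold of 1.57. On the same list 0 were called in the Cyp27a1 KO over WT, beside 2.44% of measured genes higher and 1.36% lower, with a median of 0.04. Their part in the DKO level of Atp6v0d2, a gene of macrophages, was not tested. Of 8 osteoclast and lipid-associated macrophage markers 4 were measured, and the summed CPM of the list was 122 in the Cyp27a1 KO, 85.2 in the DKO, 96.4 in the Cyp3a KO and 134 in WT. Acp5, the tartrate-resistant acid phosphatase gene, made up most of that sum, with 5234 counts in the Cyp27a1 KO, 4104 in the DKO, 4450 in the Cyp3a KO and 5539 in WT. Itgb3 had 291 to 482 counts, while Dcstamp and Ctsk had at most 2 and 22. Trem2 was called higher in the Cyp27a1 KO, with 281 counts against 114 in WT, and had 7 in the DKO against 19 in the Cyp3a KO.

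For the genes known from brain, 1 of 7 neuronal markers was measured. This was Syt1, a synaptic vesicle gene, with 267 counts in the Cyp27a1 KO, 364 in the DKO, 849 in the Cyp3a KO and 238 in WT. It was called lower in the DKO than in the Cyp3a KO, with a log2 fold of -1.27, and higher in the Cyp3a KO than in WT, with one of 1.64. Snap25 and Elavl4 had 0 counts in every library. The summed CPM of the neuronal list was 6.39 in the Cyp27a1 KO and 8.07 in the DKO, against 18.6 in the Cyp3a KO and 6.61 in WT. Of 6 intestinal markers 2 were measured, with a summed CPM of 25.4 in the Cyp27a1 KO, 30.4 in the DKO, 52.6 in the Cyp3a KO and 36.7 in WT. Of these, Lgals4 was called lower in the Cyp27a1 KO over WT, with a log2 fold of -1.04, beside 1.36% of measured genes. No intestinal marker was called in the DKO over the Cyp3a KO. Of 8 bile duct cell markers, taken for the epithelial gene Prss8, 5 were measured. The list had a summed CPM of 42.4 in the Cyp27a1 KO, 48.5 in the DKO, 52.5 in the Cyp3a KO and 54.9 in WT. In either pair 0 were called higher, which for so few genes is near the background of 2.44% and 4.02%. Sox9 was called lower in both, at log2 folds of -1.13 and -1.14, beside 1.36% and 2.70% of measured genes. None of these 3 sums was higher in both pairs. The 5 hepatocyte markers, led by albumin, had a summed CPM of 58596 in the Cyp27a1 KO and 84451 in the DKO, against 63350 in the Cyp3a KO and 97854 in WT. The albumin gene Alb had log2 folds of -0.93 and 0.70 in the 2 pairs. Of the 5, 0 were called in either pair, which for so few genes is near the background.

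The genes whose pattern over the 4 libraries was most like each member were ranked among 11190 measured genes by the root mean square distance of centred log2(CPM + 0.5) values. Pls1 and Prss8 were each other's near matches, at a distance of 0.13. The gene closest to Prss8 was Cyp2a5, at 0.13, and Bmper stood at 0.16. Pls1 had the same 2 genes next, Bmper at 0.17 and Cyp2a5 at 0.23. Wdfy1 was closest to Nol3 at 0.09, with 186 counts in the Cyp27a1 KO, 213 in the DKO, 41 in the Cyp3a KO and 31 in WT. Next came Nqo1 at 0.19 and Gsta2 at 0.22, both genes of detoxification enzymes. Robo1 was closest to Gas7 at 0.21, Cav1 at 0.28 and Gstm2 at 0.38. The other members had looser matches. Fam19a2 was closest to H2-Q1 at 0.37, Mogat2 at 0.55 and Cyp7a1, the rate-limiting enzyme of bile acid synthesis, at 0.56. Lrtm2 was closest to Themis at 0.40, Sult1e1 at 0.42 and Cyp2a22 at 0.49. Atp6v0d2 was closest to Gsta1 at 0.49, Themis at 0.59 and Lrtm2 at 0.59. With 4 libraries these distances are a description.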

How the data were processed

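Liver RNA of 1 male mouse per genotype was sequenced after TruSeq v2 library preparation, per the labels' protocols. Per the submitters' processing notes, the tools were kallisto 0.43.1, HISAT2 2.0.5 and Trimmomatic 0.33, with mm10 as build and no roles stated; which annotation release was used is not given in the sources used here. Estimated counts, deposited by the authors for each symbol, were unscaled and not all whole, and were rounded to whole numbers. The authors also deposited TPM, used for lengths and levels between genes. A row without a gene name had 0 counts and was dropped. Counts were scaled by TMM (edgeR 4.0.16, R 4.3.3) and read in Python 3.11.15. Alternatives were library totals, DESeq2 1.42.0 size factors, TPM, other filters, pseudocounts and folds. Count intervals are exact Poisson and ratio intervals exact binomial (Clopper-Pearson). With no molecular identifiers, reads are not separate molecules. Coordinates come from GENCODE M21, which 32114 symbols matched once. Members and lists were chosen with earlier results of these data known. Besides the members, the text names list genes, overlapping or adjacent genes, and the 3 closest patterns per member; Ifnb1, Tlr3 and other list genes beyond the largest folds were chosen after their values were seen.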

Additional observations from a re-analysis of the deposited data

Results flagged for a closer look

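Of 59 named genes compared between the 2 pairs, Srgap3 moved in opposite directions with Cyp27a1 loss. It had 210 counts in the Cyp27a1 KO against 78 in WT, a log2 fold of 1.12, and 19 counts in the DKO against 80 in the Cyp3a KO, a log2 fold of -1.30. The 59 were not drawn from the marker lists, where the stellate marker Acta2 was also called in opposite directions, at 1.02 and -1.16. Neither difference was tested, as each group is 1 library.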

How the results depend on the processing

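No paired analysis was possible because each genotype has 1 library. For the same reason no replicate could be left out. No member changed direction in either pair with Cyp27a1 loss under the alternatives run. All genes called higher in the Cyp27a1 KO over WT numbered 287, against 435 on TPM and 65 at 4-fold. In the DKO over the Cyp3a KO they numbered 472, against 724 on TPM, 269 at a mean CPM of at least 5, 311 at a pseudocount of 2 and 108 at 4-fold. In the Cyp3a KO over WT they numbered 301, against 51 at 4-fold, where 1 member, Robo1, was called. In the DKO over the Cyp27a1 KO they numbered 333, against 181 at a mean CPM of at least 5 and 91 at 4-fold. TPM raised the median gene by log2 0.18 and 0.24 in the 2 pairs with Cyp27a1 loss, and calls that were higher made up 78.0% and 77.8%, against 64.2% and 59.8% on counts; in the DKO over the Cyp27a1 KO they made up 65.2% on TPM and 52.3% on counts. After recentring, 299 and 460 genes were higher. Robo1 was called in the DKO over the Cyp3a KO under library totals, median-of-ratios scaling, TPM and a pseudocount of 0.1, with log2 folds of 0.92 to 1.16 over all alternatives. Wdfy1 was not called at 4-fold in either pair. In the Cyp3a KO over WT, Fam19a2 was called with a pseudocount of 0.1 and Pls1 was not with one of 2. In the DKO over the Cyp27a1 KO, Pls1 was called under library totals and on TPM. Within 5 Mb of Cyp3a11, 0% of genes were higher with Cyp3a loss in either comparison, against 0.658% within 10 Mb, and fewer genes lie in the smaller window. Over all measured genes 2.56% and 2.84% were higher. Within 5 Mb, 8.33% were lower in the Cyp3a KO over WT and 6.94% in the DKO over the Cyp27a1 KO. All of those were Cyp3a genes, and over all measured genes 1.86% and 2.59% were lower. The log2 fold of Fam19a2 in the Cyp27a1 KO over WT ranged from 2.47 to 5.70 and that of Lrtm2 from 1.54 to 4.35, since WT held 4 and 5 counts. At such depth the size of these folds is loosely set.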
